A study of Homo sapiens with 12 samples.

Results

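Positions 1 to 400 of human 18S rRNA, the RNA of the small ribosomal subunit, hold 9 of the 41 positions of 18S that the authors list as 2'-O-methylated, and 9 of the 141 listed over all RNAs measured. The stretch was chosen by position alone: all 400 rows with these positions were taken, the 9 listed sites as methylated sites and the other 391 as background. The 9 sites are Am27, Am99, Um116, Um121, Am159, Am166, Um172, Cm174 and Um354, named by base and position in the deposited 18S sequence. All 9 were tested, with no filter on low values.

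The libraries came from HEK293 Flp-In T-Rex cells, a line derived from human embryonic kidney. The 4 groups of 3 biological replicates were GPATCH4 knockout cells (GPATCH4 KO), wild-type cells (WT), wild-type cells transfected with siRNAs against DHX15 (siDHX15) and wild-type cells transfected with non-target siRNAs (siNT). How many clones the knockout stands for, and how long the siRNAs acted, is not given in the sources used here. The assay measures neither the GPATCH4 nor the DHX15 transcript, and neither the loss of GPATCH4 nor the depth of the DHX15 knockdown could be checked here.

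A box C/D small nucleolar RNA (snoRNA) pairs with the pre-rRNA around its target and brings fibrillarin, which places a methyl group on the ribose of 1 nucleotide. DHX15 is a DEAH-box RNA helicase, an enzyme that remodels RNA pairing, and G-patch proteins such as GPATCH4 bind and stimulate helicases of this family. The 5' domain of 18S, in which these positions lie, forms much of the body of the small subunit.

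The bases around each site are shown because the guide snoRNAs pair there and because several sites lie within each other's measuring window. Each line gives the 10 bases before and after a site, 5' to 3', from the deposited tables, with the methylated base in capitals.
Am27: ccaguagcauAugcuugucuc
Am99: cgaauggcucAuuaaaucagu
Um116: caguuaugguUccuuuggucg
Um121: augguuccuuUggucgcucgc
Am159: aacugugguaAuucuagagcu
Am166: guaauucuagAgcuaauacau
Um172: cuagagcuaaUacaugccgac
Cm174: agagcuaauaCaugccgacgg
Um354: uucgaacgucUgcccuaucaa

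Of the 9 sites, 4 are A, 4 are U, 1 is C and 0 are G, whereas 39 of all 141 listed sites are G. Sites crowd together in places. Um116 and Um121 lie 5 nt apart, and Am159, Am166, Um172 and Cm174 follow each other at distances of 7, 6 and 2 nt. Positions 155 to 178, with all 4 methylated bases in capitals, read as below.
Stretch 155 to 178: gguaAuucuagAgcuaaUaCaugc

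After Cm174 the next 179 nt, positions 175 to 353, hold 0 listed sites. G and C make up 69.8% of these 179 nt and 45.4% of positions 1 to 174. RefSeq places 18S genes of the same length, 1869 nt, at chr21:8209631-8211499, chr21:8392666-8394534, chr21:8436876-8438744 and chr22:125931-127799 of GRCh38.p14, plus 1 on an unplaced sequence. A read cannot be assigned to one of these copies.

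As background, the guides known for these sites in human cells are SNORD27 for Am27, SNORD57 for Am99, SNORD42 for Um116, SNORD4 for Um121, SNORD44 for Am166 and the SNORD45 family for Am159, Um172 and Cm174. SNORD45A, SNORD45B and SNORD45C lie in introns of one host gene, RABGGTB on chromosome 1, SNORD44 in the non-coding gene GAS5, and SNORD57 in NOP56. No guide is named here for Um354.

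The measurement, RiboMeth-seq, rests on partial alkaline hydrolysis, which rarely cuts the bond after a 2'-O-methylated ribose. Read ends are therefore sparse at a methylated position. The RMS score is 1 minus the read 5' and 3' ends at the position over a weighted mean of the 6 positions on each side, set to 0 where negative. A score near 1 stands for few ends and a score of 0 for as many as the neighbours or more. It is an average over all 18S molecules of a culture, so a partial loss in every cell and a full loss in some cells cannot be told apart.

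Libraries held 875096 to 16314082 read ends, of which 50296 to 1127426 fell on positions 1 to 400. Knockout and WT libraries were deeper here, with 486373 to 994308 and 587529 to 1127426 ends, than siDHX15 and siNT libraries, with 50296 to 357244 and 85728 to 98711. The neighbours of the 9 sites held on average 737 to 3694 ends in knockout, 1407 to 6241 in WT, 88.2 to 2096 in siDHX15 and 136 to 445 in siNT libraries. Reads carry no molecular identifiers, so such numbers bound counting error only. The share of all 18S ends that fell on positions 1 to 400 was 26.6% in knockout replicate 3 and at most 17.2% in the other 2, against 19.4% to 19.5% in WT. Knockout replicate 3 thus stood apart, and its part in the results was measured by leaving it out, which changed no call of the 9 sites against WT.

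**Figure D1:**
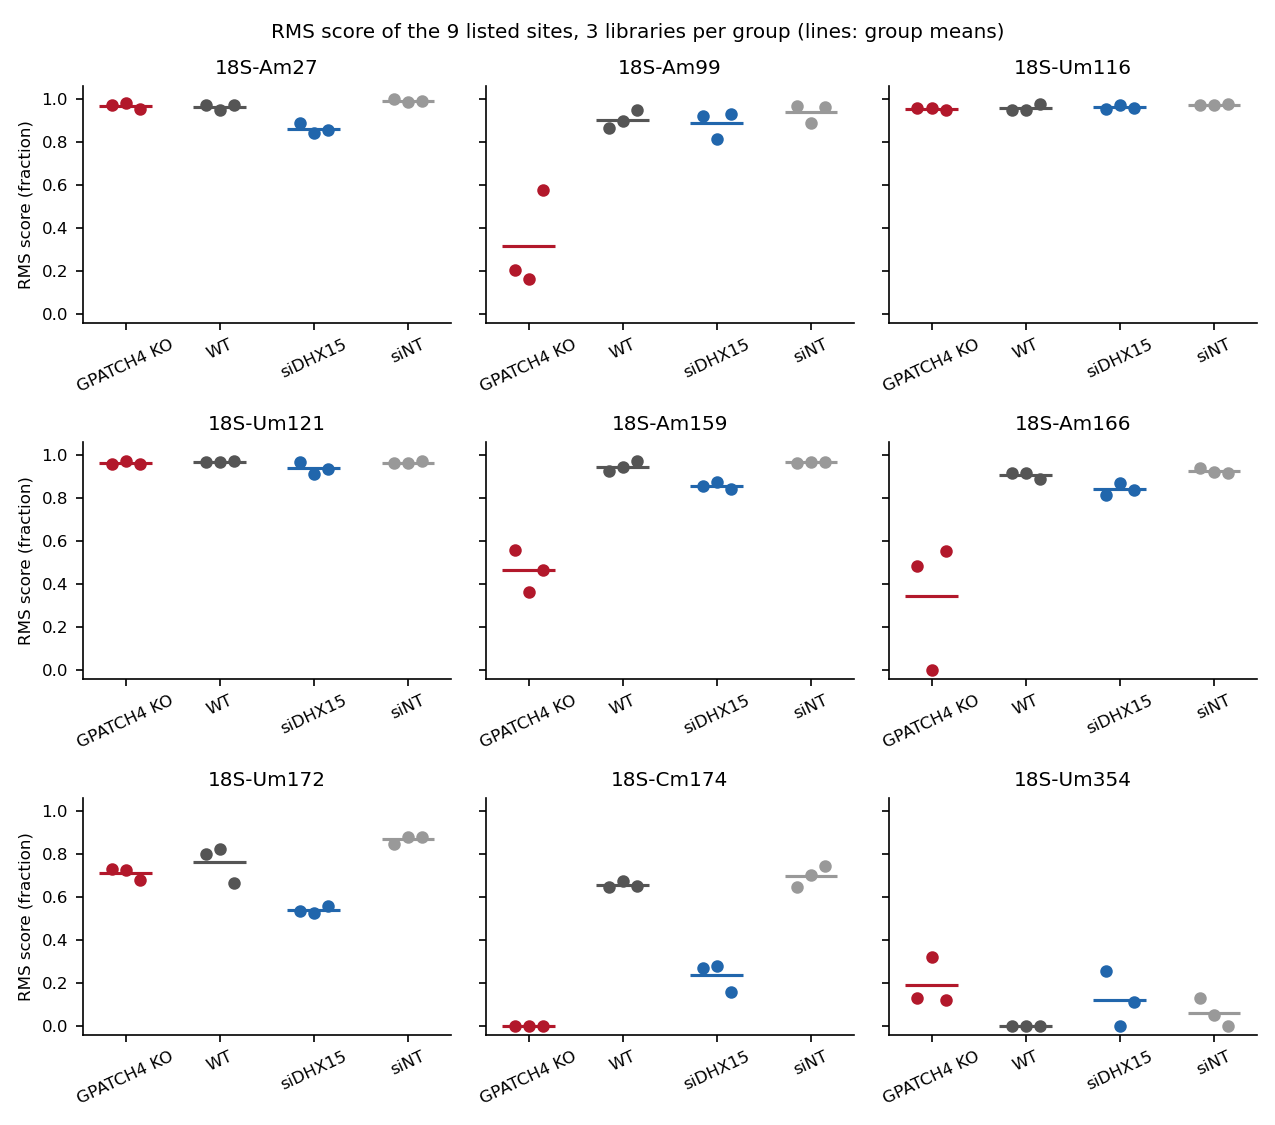
RMS score (fraction) of each of the 9 sites in each library, with 3 points per group in replicate order and a line at the group mean. Am99, Am159, Am166 and Cm174 were lower in all GPATCH4 KO libraries than in all WT libraries, and siDHX15 libraries lay below siNT libraries without overlap at Am27, Am159, Am166, Um172 and Cm174.

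The first comparison asked which of these sites depend on GPATCH4. In knockout cells 4 of the 9 sites fell, namely Am99, Am159, Am166 and Cm174, and 0 rose (limma, Benjamini-Hochberg adjusted p under 0.05 over all 141 sites). Over all 141 sites the percentage called lower was 24.8%, with 35 sites, and in the rest of 18S 13 of 32 were lower. The percentage called higher over all 141 sites was 0.709%. At the 4 sites that fell, all 3 knockout scores lay below all 3 WT scores, which held for 31.2% of all listed sites. The median difference over the 9 sites was -0.0499, against -0.00607 over all 141.

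Cm174, a SNORD45 family target, lost its whole score in the knockout. It was 0 in all 3 knockout libraries, against 0.647, 0.677 and 0.650 in WT. The difference was -0.658 (SE 0.0335, adjusted p = 2.09e-07), and no spread from the knockout enters this SE. Because negative scores are set to 0, the read ends themselves show more. Cm174 had 7603, 1624 and 2821 ends in knockout replicates 1, 2 and 3, which is 2.46, 2.20 and 1.80 times the neighbour mean, against 783, 588 and 815 ends in WT, or 0.353, 0.323 and 0.350 times. In the knockout this position was thus cut more often than its surroundings, while in WT it was protected. With no floor at 0 the knockout scores were -1.46, -1.20 and -0.803, and the difference from WT was -1.81 (adjusted p = 2.26e-06).

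Am159, 15 nt upstream and also a SNORD45 family target, kept an intermediate score. It had 0.560, 0.363 and 0.467 in knockout libraries, against 0.924, 0.943 and 0.971 in WT. The groups lay far apart and the difference was -0.483 (SE 0.0399, adjusted p = 4.53e-06). Scores from read 5' ends alone averaged 0.598 ± 0.0841 in the knockout and 0.966 ± 0.00882 in WT (SD, n = 3 each). Scores from read 3' ends alone averaged 0.363 ± 0.120 in the knockout and 0.932 ± 0.0279 in WT.

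Am166, the SNORD44 target between them, varied most among knockout libraries. Its scores were 0.483, 0 and 0.553 in the knockout, against 0.917, 0.917 and 0.887 in WT. Knockout replicate 2 stood apart, with 1455 ends against a neighbour mean of 1085, and 1226 of the 1455 were read 3' ends. From read 5' ends alone the 3 knockout libraries were closer together, at 0.373, 0.229 and 0.358, all below the WT values of 0.920, 0.857 and 0.902. The difference from both kinds of ends was -0.562 (SE 0.113, adjusted p = 0.00351). The call was lost when only knockout and WT libraries entered the fit (adjusted p = 0.0526). It was also lost when the library index, the sequence tag named in the file headers, was a block (-0.518, adjusted p = 0.0783). Knockout and WT libraries share no index, so the index block compares them only through the siRNA libraries.

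Um172, which the SNORD45 family also guides, lies 2 nt before Cm174 and did not pass the test. Its scores were 0.732, 0.727 and 0.681 in knockout libraries, against 0.801, 0.824 and 0.666 in WT. The groups overlapped through WT replicate 3, and the difference was -0.0499 (SE 0.0367, adjusted p = 0.429). Cm174 is one of the 12 neighbours in the denominator of Um172, and its ends rose in the knockout. With listed neighbours left out, the mean at Um172 was 0.686 ± 0.0165 in the knockout and 0.791 ± 0.0782 in WT (SD, n = 3 each), and the site was called lower, by -0.105 (adjusted p = 0.0385). It was also called from read 3' ends alone (-0.116, adjusted p = 0.0458) and without WT replicate 3 (-0.0989, adjusted p = 0.00935). It was closer to 0 with libraries centred (-0.0212, adjusted p = 0.684) and with 2 neighbours on each side (-0.0137, adjusted p = 0.910).

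**Figure D2:**
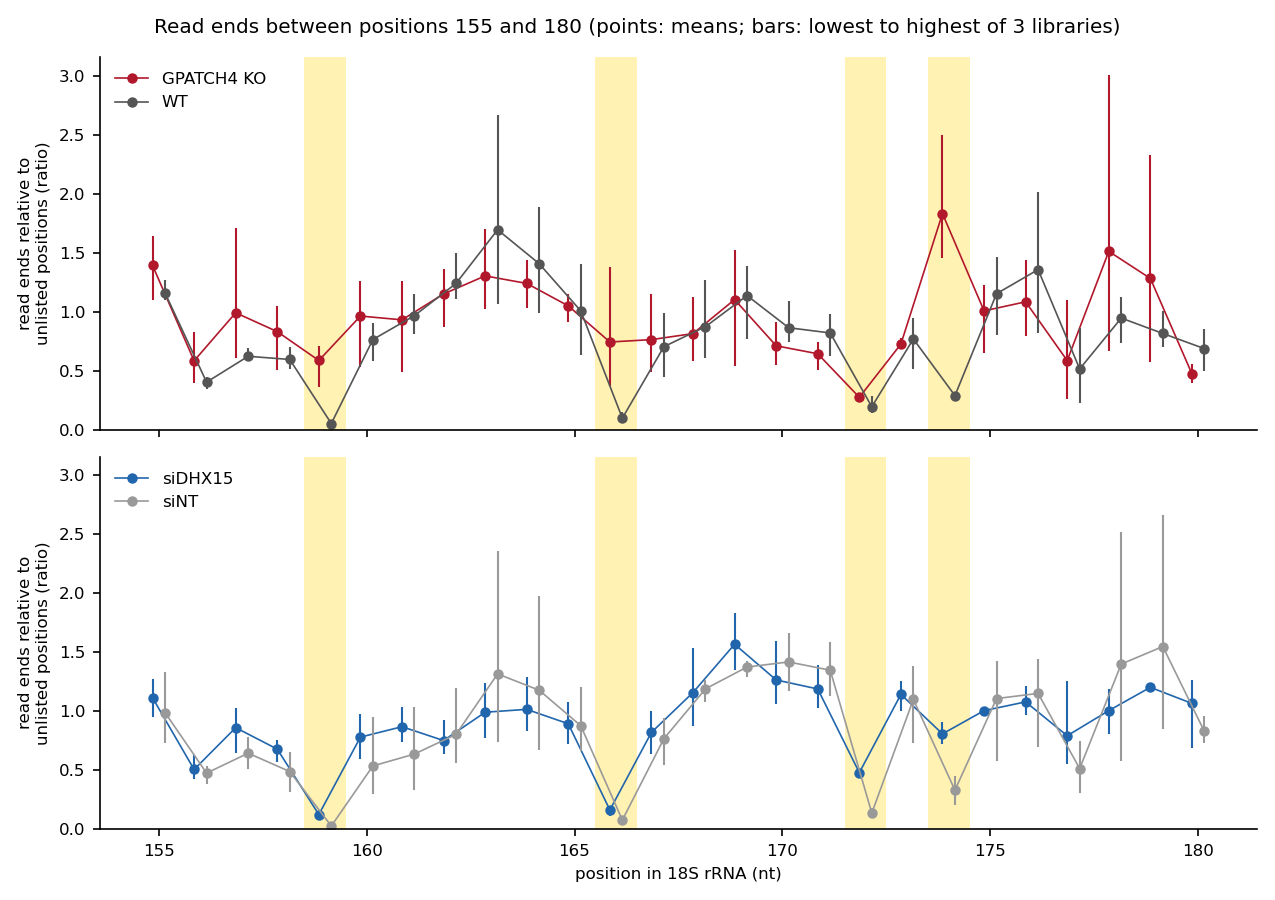
Read ends at positions 155 to 180 of 18S, as a ratio to the mean of the unlisted positions 150 to 185 of the same library (points: means of 3 libraries, bars: lowest to highest, shaded: Am159, Am166, Um172 and Cm174). At Cm174 the mean ratio was 1.83 in GPATCH4 KO against 0.288 in WT, and 0.807 in siDHX15 against 0.330 in siNT; at Um172 it was 0.273 against 0.193, and 0.478 against 0.136.

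Am99, the SNORD57 target, lies 60 nt upstream of this cluster and fell too. Its scores were 0.205, 0.163 and 0.575 in knockout libraries, against 0.867, 0.895 and 0.950 in WT. Replicate 3 kept the highest score of the knockout, yet all 3 lay below WT, by -0.590 on average (SE 0.0916, adjusted p = 0.000571). The spread came with read 3' ends. From 5' ends alone the knockout libraries had 0.498, 0.463 and 0.501, and from 3' ends alone 0.115, 0.0387 and 0.594. WT libraries had 0.962, 0.947 and 0.952 from 5' ends and 0.795, 0.861 and 0.949 from 3' ends.

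**Figure D3:**
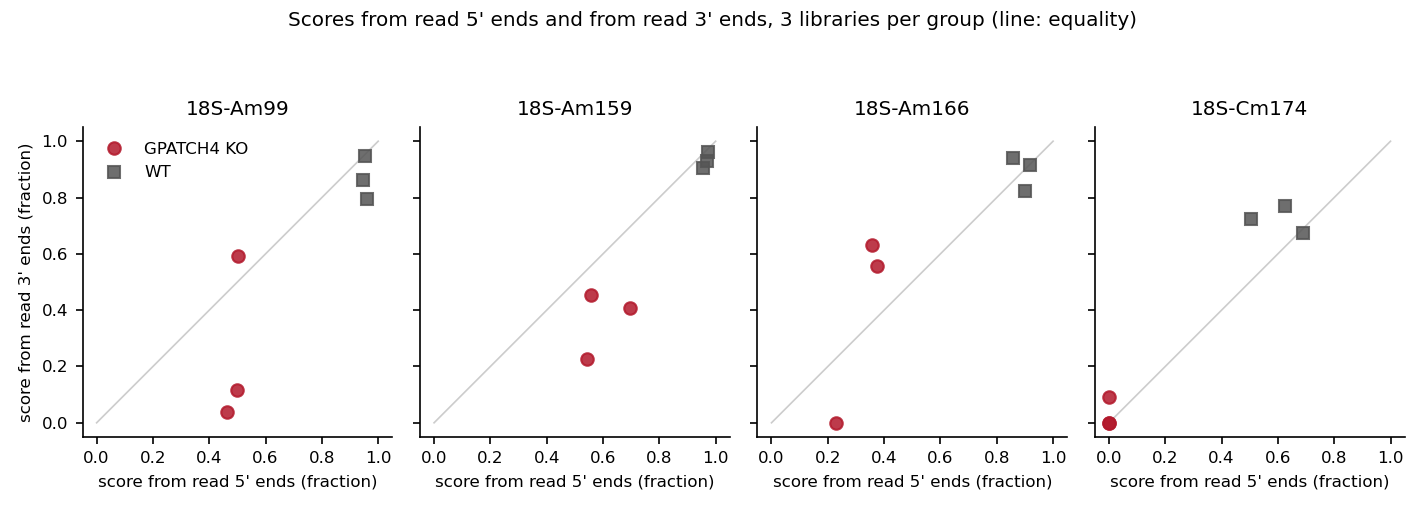
Score from read 3' ends (vertical) against score from read 5' ends (horizontal), both fractions, for 3 GPATCH4 KO and 3 WT libraries at Am99, Am159, Am166 and Cm174, with the line of equality. At Am99 the GPATCH4 KO libraries lie between 0.463 and 0.501 on the horizontal axis and between 0.0387 and 0.594 on the vertical axis.

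The other sites upstream kept high scores in the knockout. Am27, the SNORD27 target near the 5' end of 18S, had 0.971, 0.983 and 0.951 in knockout libraries, against 0.971, 0.949 and 0.970 in WT. The difference was 0.00526, with a 95% interval from -0.0316 to 0.0421 (adjusted p = 0.934). Um116 averaged 0.955 ± 0.00479 in the knockout and 0.958 ± 0.0149 in WT (SD, n = 3 each), and Um121 averaged 0.962 ± 0.00649 in the knockout and 0.968 ± 0.00236 in WT. Their intervals ran from -0.0328 to 0.0269 at Um116 and from -0.0424 to 0.0302 at Um121, so differences as large as those at the 4 lower sites lay outside them. The groups overlapped at all 3 sites.

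Um354 differs from the other sites in its level. It had 0.132, 0.321 and 0.122 in knockout libraries and 0 in all 3 WT libraries. All knockout scores were above WT, but the difference of 0.192 (SE 0.0690, adjusted p = 0.0709) did not pass the test. It passed with libraries centred (0.220, adjusted p = 0.0342) and on a logit scale (adjusted p = 0.0183), where scores of 0 were set to 0.01. With no floor, where the WT libraries differ from each other, it did not pass (0.407, adjusted p = 0.145). The difference was far smaller from read 3' ends alone (0.0367, adjusted p = 0.623). It was also far smaller with the index block (0.0337, adjusted p = 0.663), which compares knockout with WT only through siRNA libraries. WT had 1.02 to 1.49 times as many ends at Um354 as at its neighbours, so the position was not depleted of ends in WT.

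**Figure D4:**
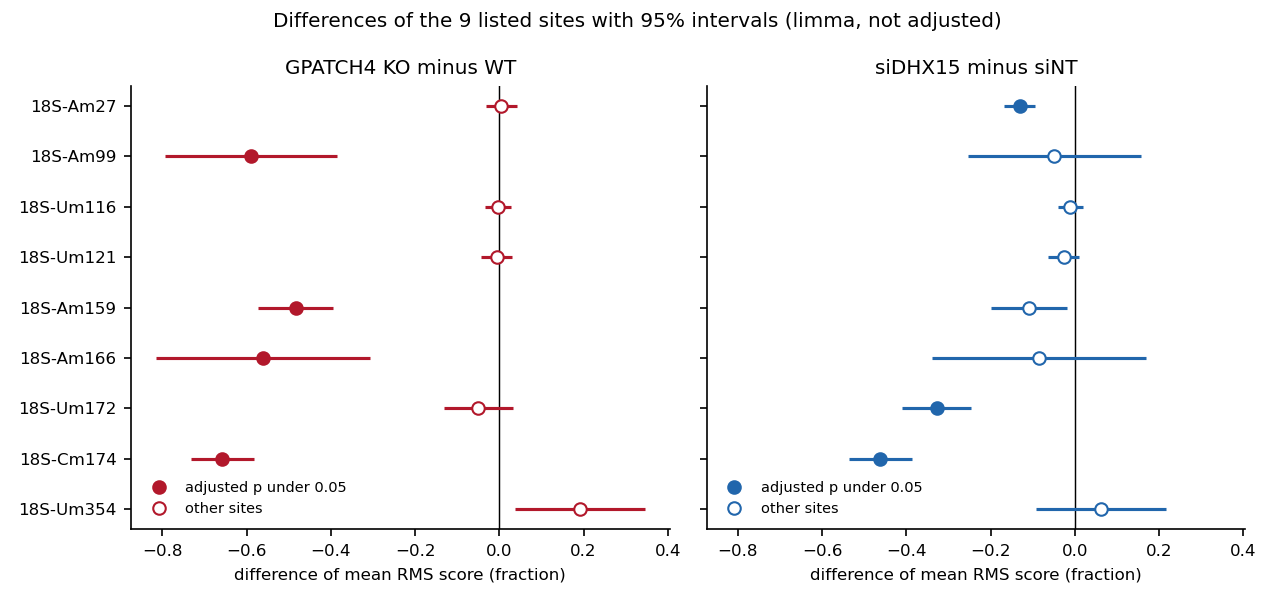
Difference of mean RMS score (fraction) at each site, GPATCH4 KO minus WT on the left and siDHX15 minus siNT on the right, with 95% intervals from the limma fit; filled points had an adjusted p under 0.05. Cm174 is filled in both panels, with -0.658 and -0.462.

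The siRNA libraries addressed which of the 9 sites depend on DHX15. With DHX15 knocked down, 3 of the 9 sites fell, namely Am27, Um172 and Cm174, and 0 rose. Over all 141 sites the percentage called lower was 31.2%, with 44 sites, and in the rest of 18S 11 of 32 were lower. At 5 of the 9 sites the siDHX15 libraries lay below the siNT libraries without overlap, which held for 44% of all listed sites. The median difference was -0.0858 over the 9 sites and -0.0569 over all 141. In the fit of all 12 libraries Cm174 was the one site of the 9 called lower in both comparisons. Under some of the alternatives given here, Am159 and Um172 were also called in both.

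Cm174 had 0.269, 0.277 and 0.160 in siDHX15 libraries, against 0.644, 0.703 and 0.746 in siNT. A part of the depletion remained in every siDHX15 library, and the difference was -0.462 (SE 0.0335, adjusted p = 2.30e-06). The knockout libraries also enter this fit and, set to the floor, add no spread to the SE. With no floor the same difference had an adjusted p of 0.0202. Scores from read 5' ends alone averaged 0.0691 ± 0.0669 in siDHX15 and 0.688 ± 0.0929 in siNT, and those from 3' ends alone 0.389 ± 0.0787 in siDHX15 and 0.688 ± 0.0709 in siNT (SD, n = 3 each). The difference from 3' ends alone was thus smaller, at -0.298 (adjusted p = 0.00225).

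Um172 had 0.536, 0.524 and 0.558 in siDHX15 libraries, against 0.846, 0.878 and 0.878 in siNT. The 3 siDHX15 libraries were close together and far below siNT, with a difference of -0.328 (SE 0.0367, adjusted p = 6.19e-05). With listed neighbours left out the means were 0.573 ± 0.0122 in siDHX15 and 0.883 ± 0.0167 in siNT.

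Am27 had 0.887, 0.842 and 0.853 in siDHX15 libraries, against 1.000, 0.985 and 0.988 in siNT. These scores rest on 10, 31 and 129 read ends in siDHX15 and on 0, 4 and 4 in siNT, at neighbour means of 88.2, 196 and 880 in siDHX15 and of 136, 265 and 336 in siNT. The groups did not overlap and the difference was -0.130 (SE 0.0164, adjusted p = 0.000141). With libraries centred on all listed sites it was -0.0613 (adjusted p = 0.0177), and from read 3' ends alone it did not pass the test (-0.177, adjusted p = 0.0811). Am27 is the one site of the 9 whose neighbours held under 100 ends on average in a library.

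Am159 and Am166, the other SNORD45 family target and the SNORD44 target, did not pass in siDHX15 cells. Am159 had 0.854, 0.873 and 0.841 in siDHX15 libraries, against 0.962, 0.966 and 0.968 in siNT. The groups did not overlap, yet the difference of -0.109 (SE 0.0399) had an adjusted p of 0.0661, in a fit whose spread at this site also holds the knockout libraries. With only siDHX15 and siNT libraries in the fit it passed (adjusted p = 0.00513), as it did from 5' ends alone (-0.115, adjusted p = 0.0369), with 2 neighbours on each side (-0.107, adjusted p = 0.00911), on a logit scale (adjusted p = 0.00165) and in edgeR (adjusted p = 0.000713). The difference was smaller with libraries centred (-0.0400, adjusted p = 0.502) and with the index block (-0.0155, adjusted p = 0.901). Because siDHX15 and siNT libraries share no index, the index block compares them only through knockout and WT libraries. The difference did not pass from read 3' ends alone (adjusted p = 0.251) or with libraries thinned (adjusted p = 0.191).

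Am166 had 0.812, 0.869 and 0.836 in siDHX15 libraries, against 0.940, 0.921 and 0.915 in siNT. These groups did not overlap either, and the difference was -0.0858 (SE 0.113, adjusted p = 0.653). In the fit of siDHX15 and siNT libraries alone the adjusted p was 0.0285. With libraries centred the difference was -0.0166 (adjusted p = 0.925). With the index block the sign of the difference turned, to 0.0141 (adjusted p = 0.974), again in a comparison that runs only through knockout and WT libraries. Knockout replicate 2, at 0, is among the libraries that set the spread of this site in the 12-library fit.

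Am99, which fell in the knockout, had 0.923, 0.815 and 0.932 in siDHX15 libraries, against 0.966, 0.887 and 0.964 in siNT. The groups overlapped, with a difference of -0.0493 and an interval from -0.254 to 0.156 (adjusted p = 0.746). Um116 averaged 0.962 ± 0.0102 in siDHX15 and 0.973 ± 0.00146 in siNT (SD, n = 3 each), a difference of -0.0113 (adjusted p = 0.597). With libraries centred that sign turned, to 0.0579 (adjusted p = 0.0124). Um121 had 0.969, 0.911 and 0.933 in siDHX15 libraries, against 0.960, 0.960 and 0.973 in siNT, a difference of -0.0266 (adjusted p = 0.260). It passed only without siDHX15 replicate 1, the shallowest library (-0.0424, adjusted p = 0.0414). Um354 had 0.257, 0 and 0.110 in siDHX15 libraries, against 0.130, 0.0538 and 0 in siNT, and the groups overlapped (adjusted p = 0.586).

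The next comparison asked at which sites the knockout and the knockdown had different effects, tested as the difference of the 2 differences in the same fit. The knockout and the siRNA libraries have separate controls. The effects differed at 6 of the 9 sites, against 37.6% of all 141 and 16 of 32 in the rest of 18S. At Am99, Am159, Am166 and Cm174 the loss was larger in the knockout, by -0.540 (adjusted p = 0.00816), -0.374 (adjusted p = 0.000451), -0.476 (adjusted p = 0.0423) and -0.196 (adjusted p = 0.00849). At Am27 and Um172 it was larger in siDHX15 cells, with differences of effects of 0.136 (adjusted p = 0.00104) and 0.278 (adjusted p = 0.00165). The neighbouring SNORD45 family targets Um172 and Cm174 thus stood on opposite sides, with each in the other's denominator. With listed neighbours left out, the effects at Um172 lay closer together, at -0.105 in the knockout and -0.311 in siDHX15 cells. In that setting 6 of the 9 sites were called again.

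Am166 was the least stable of the 6, with an adjusted p of 0.0528 with the replicate number as a block and of 0.0638 to 0.0824 when any 1 WT, siDHX15 or siNT library was left out. Without knockout replicate 2 the difference of effects at Am166 was -0.304 (adjusted p = 0.000133). At Cm174 the difference of effects turned to 0.0119 from read 5' ends alone (adjusted p = 0.949) and was -1.35 with no floor (adjusted p = 0.000267). It did not pass with 2 neighbours on each side (adjusted p = 0.117) or with the index block (adjusted p = 0.0711). From read 3' ends alone Am27 (adjusted p = 0.154), Am99 (adjusted p = 0.0610) and Am166 (adjusted p = 0.189) did not pass, and neither did Am99 (adjusted p = 0.0569) and Am159 (adjusted p = 0.0840) in edgeR. Am166 did not pass with no floor (adjusted p = 0.120), on a logit scale (adjusted p = 0.135) or with the index block (adjusted p = 0.0725).

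In neither control group was GPATCH4 or DHX15 targeted, so siNT was also set against WT. In limma 0 of the 9 sites differed, and 0% of all 141 were called. At an unadjusted p under 0.05 there was 1 of the 9, Um172, and 10 of 141, and edgeR called 0. Um172 averaged 0.867 ± 0.0187 in siNT and 0.763 ± 0.0856 in WT (SD, n = 3 each), and all siNT scores lay above all WT scores (adjusted p = 0.370). From read 5' ends alone it averaged 0.839 ± 0.0125 in siNT and 0.611 ± 0.0216 in WT and passed the test (adjusted p = 0.0491). At Am27, too, all siNT scores lay above all WT scores (difference 0.0278, adjusted p = 0.730). The share of all listed sites with siNT above WT in this way is not given here. At the 8 sites other than Um172 the mean difference lay between -0.00401 and 0.0611. Of the unlisted positions described further on, limma called 0 of 383 between siNT and WT, and 30 (7.83%) had an unadjusted p under 0.05, against 9.17% of all unlisted positions tested.

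The order of the sites by mean score also differed between groups. In the knockout Am27, Um121 and Um116 averaged 0.955 to 0.968, then came Um172 at 0.714, and Am159, Am166 and Am99 at 0.463, 0.345 and 0.314 overlapped each other. In WT Um121, Am27, Um116 and Am159 averaged 0.946 to 0.968 with overlapping libraries, and Am166 and Am99 followed at 0.907 and 0.904. In siDHX15 cells Um116 and Um121 averaged 0.962 and 0.938, and Am99, Am27, Am159 and Am166, at 0.839 to 0.890, did not separate. In siNT these 6 sites averaged 0.925 to 0.991. Um172, Cm174 and Um354 came last by mean, in this order, in WT, siDHX15 and siNT cells. The scores of Um172 and Cm174 overlapped in WT, and those of Cm174 and Um354 in siDHX15 cells. The median over the 9 sites was 0.463 in the knockout, 0.907 in WT, 0.856 in siDHX15 and 0.939 in siNT.

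As a description, each site was matched with the listed site whose scores ran most like its own over the 12 libraries, which share groups and depth. Am159 was most like 18S-Gm644 (Pearson r = 0.992), Am99 like 28S-Am3760 (r = 0.940) and Cm174 like 18S-Um1804 (r = 0.940). Am166 was most like Am159, its neighbour at 7 nt (r = 0.940). Am27 was most like 28S-Um2414 (r = 0.952) and Um172 like 28S-Cm2350 (r = 0.892). The nearly constant Um116 and Um121 had lower values, with U5A-Gm37 (r = 0.756) and 18S-Am468 (r = 0.879), as did Um354 with 18S-Gm436 (r = 0.765).

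The unlisted positions showed how far the assay moves without a listed site. They were tested as the log2 ratio of read ends to neighbours, with listed sites left out of the neighbours, over 6392 unlisted positions of all RNAs, of which 383 lie here. In limma 0 of 383 were called between knockout and WT and 0 between siDHX15 and siNT, and the percentage called over all 6392 was 0% in both. At an unadjusted p under 0.05 there were 14 and 13 of the 383, or 3.66% and 3.39%, against 4.71% and 3% of all. The median absolute log2 change here was 0.18 in the knockout and 0.16 in siDHX15 cells, and the largest were 1.04 and 0.95.

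On the same log2 scale read ends over neighbours were higher by 2.88 at Am99, 3.40 at Am159, 2.89 at Am166 and 2.67 at Cm174 in the knockout. In siDHX15 cells they were higher by 3.91 at Am27, 1.87 at Um172 and 1.39 at Cm174. At each of these 7, 0 of the 383 unlisted positions had as large an absolute change. The 7 were taken because the same data called them lower, so this rank is a description and no further test. Most unlisted positions were not depleted of ends, so their changes do not measure the noise at depleted sites. Among control libraries the SD of the log2 ratio at the 7 ran from 0.0587 at Cm174 in WT to 1.19 at Am27 in siNT. In siDHX15 cells 0 of the 383 also matched Am159 and Am166, with changes of 1.98 and 1.11, which the score did not call. Sites whose groups overlapped ranked high there too, with 0.916 at Am99, 0.661 at Um121 and 0.428 at Um116. These were matched by 1, 4 and 33 of the 383, and Um354, at -0.00439, by 372. The value at Am27 rests on 0 to 4 ends per siNT library and thus on the pseudocount of 0.5. At Um354 in the knockout the change was -0.58, and 18 of 383 unlisted positions had one as large.

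**Figure D5:**
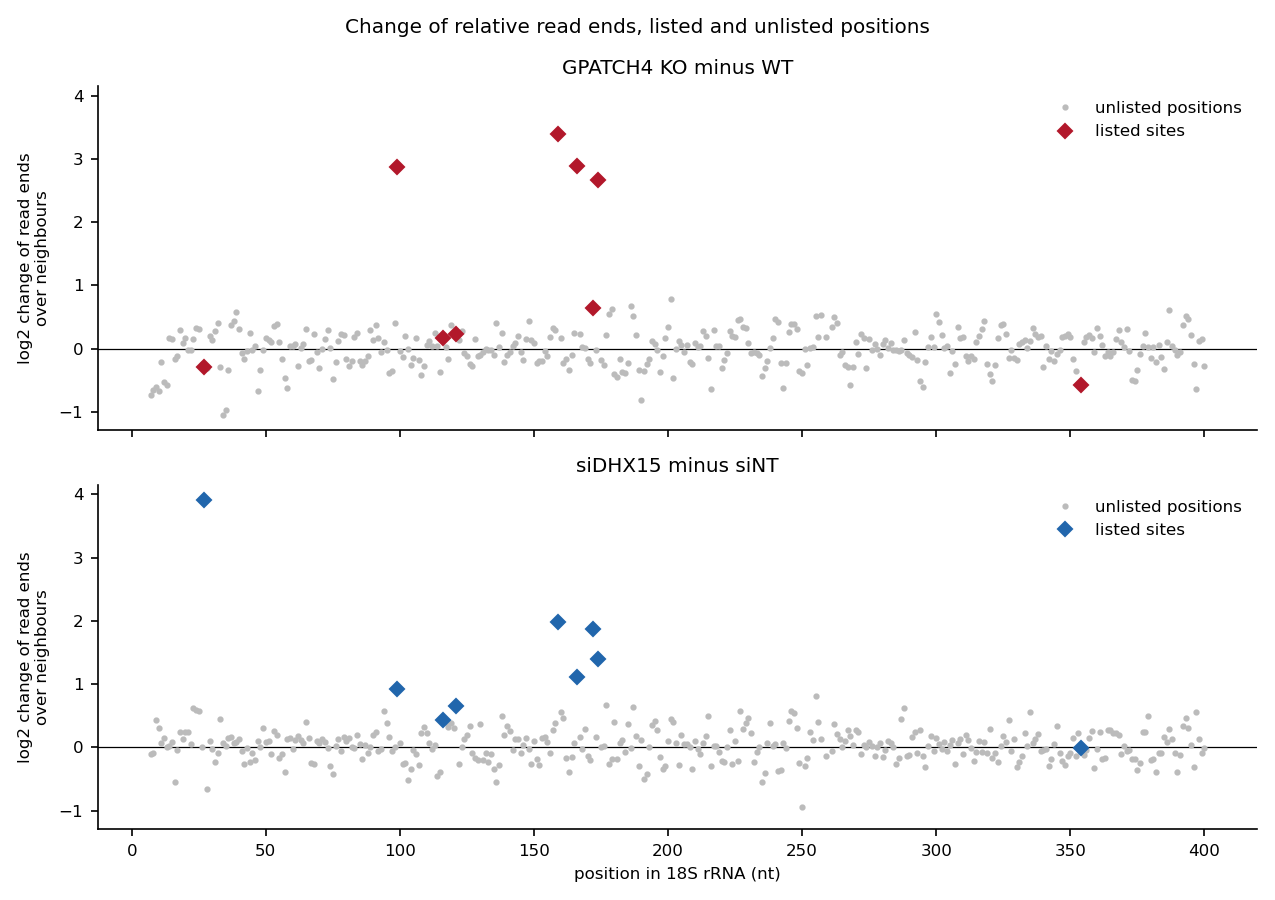
Log2 change of read ends over neighbours at unlisted positions (grey) and at the 9 listed sites (diamonds) along positions 7 to 400 of 18S, GPATCH4 KO minus WT above and siDHX15 minus siNT below. The 383 unlisted positions stay within 1.04 and 0.95 of 0, and the highest diamonds are Am159 at 3.40 in GPATCH4 KO and Am27 at 3.91 in siDHX15.

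By level the listed sites were set against 385 unlisted positions with a score, group by group. In WT and in siNT, 0 of the 385 had a higher group mean than any of Am27, Am99, Um116, Um121, Am159, Am166 and Um172. Cm174 was exceeded by 2 of them in WT and by 1 in siNT. In the knockout, Cm174, at 0, was exceeded by 301, Am99 by 85, Am166 by 68 and Am159 by 27. In siDHX15 cells Cm174 was exceeded by 111 and Um172 by 9. Um354 was exceeded by 154 in the knockout, 292 in WT, 168 in siDHX15 and 223 in siNT.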

How the data were processed

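RiboMeth-seq libraries from total RNA of 12 cultures were made, per the labels' protocols, from 20 to 40 nt fragments of alkali-treated RNA and sequenced on the Ion Proton. Tools named, without roles, are Bowtie2 2.3.4.1 and cutadapt 2.0, and the build is hg38, per the submitters' processing notes. Per the file headers, the deposited tables hold counts of read 5' ends and of read 3' ends at each of 8164 positions and the authors' RMS score, a fraction from 0 to 1, per replicate. The score formula in the report gave the deposited fraction at 8044 positions to within 1e-09. No score of the 9 sites was among the authors' recalculated values, and the table of group means was not used in the tests.

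Scores of all 141 listed sites entered a two-sided limma test (3.58.1, R 4.3.3) with 4 group means over 12 libraries, adjusted over the 141 sites by Benjamini-Hochberg. At 8 sites at the ends of snRNAs the authors' recalculated fraction was used. Unlisted positions were fitted as log2((ends + 0.5) / (neighbour mean + 0.5)) where the neighbour mean was at least 20 in every library. Both fits were tested on simulated data. Alternatives were only the compared groups, the replicate number or the library index as a block, leaving out each library, either kind of read end alone, no floor, a logit scale, centred libraries, 2 neighbours, listed neighbours left out, edgeR 4.0.16 on counts, thinning to 875096 ends, and a neighbour mean of 100. For unlisted positions a pseudocount of 5 and listed neighbours kept were also tried. No index is shared by knockout and WT libraries or by siDHX15 and siNT libraries. With the index block those groups are thus compared only through the libraries of the other comparison. Every listed site is named, whatever its result. The members, lists and tests were chosen with earlier results of these data known.

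Within each group the counts at these 400 positions varied beyond sampling noise, with chi-square values of 8.53 to 403 per degree of freedom between replicates. The titles number the replicates. Deviations of same-numbered libraries from their group means correlated over the listed sites with 0.117, 0.160 and 0.166 in siDHX15 and siNT. In knockout and WT the correlations were 0.120, 0.0459 and -0.000863. No label pairs these libraries, and the main fits used no pairing in any group. Among the alternatives, the replicate number entered only as a block over all 12 libraries. RefSeq gave the positions of the 18S genes.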

Additional observations from a re-analysis of the deposited data

Results flagged for a closer look

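At 6 sites the effect of the knockout and that of the DHX15 knockdown differed in a test of the difference itself, an interaction contrast in limma over 12 libraries. The difference of effects was -0.540 at Am99, -0.374 at Am159, -0.476 at Am166 and -0.196 at Cm174, where the loss was larger in the knockout. It was 0.136 at Am27 and 0.278 at Um172, where the loss was larger in siDHX15 cells. The siRNA libraries were shallower than the knockout and WT libraries; with libraries thinned to 875096 ends Am166 did not pass (-0.474, adjusted p = 0.0641), and 5 of the 6 did.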

How the results depend on the processing

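Over all alternatives named above, 514 of 574 single-site values kept their direction and side of the threshold, and 21 turned sign with a call in neither setting. Another 24 lost the call, 13 gained it and 2 turned sign with a call on one side, namely Um116 in siDHX15 against siNT with libraries centred (0.0579) and the difference of effects at Cm174 from read 5' ends alone (0.0119). The count of sites lower in siDHX15 was 5 with only siDHX15 and siNT libraries in the fit, which added Am159 and Am166, instead of 3. The count of sites with different effects was 3 from read 3' ends alone, instead of 6, and that of sites different between siNT and WT was 1 from read 5' ends alone, instead of 0. The cause was not tested. Leaving out 1 library gave 4 to 5 sites lower in the knockout, 3 to 4 lower in siDHX15, 5 to 6 with different effects, and 0 for siNT against WT and for unlisted positions. With the replicate number as a block the counts were 4, 3, 5 and 0, and the block changed no other call than that of the difference of effects at Am166. The siDHX15 and siNT libraries had fewer read ends. At Am99 and Am166, where spread was widest, the 95% intervals for siDHX15 minus siNT ran from -0.254 to 0.156 and from -0.340 to 0.168.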

Other observations

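Among the unlisted positions, A11 and U12 were the 2 with a score of at least 0.5 in all 12 libraries; they were chosen after seeing their values. A11 averaged 0.763 ± 0.0864 in GPATCH4 KO, 0.731 ± 0.0887 in WT, 0.805 ± 0.0328 in siDHX15 and 0.813 ± 0.0387 in siNT (SD, n = 3 each). U12 averaged 0.789 ± 0.0926 in GPATCH4 KO, 0.710 ± 0.0986 in WT, 0.615 ± 0.0342 in siDHX15 and 0.640 ± 0.124 in siNT. Both lie close to the 5' end of 18S, 16 and 15 nt before Am27.

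The 179 nt without a listed site had fewer read ends per position than positions 1 to 174. The median was 574 to 1489 ends in GPATCH4 KO libraries and 869 to 1606 in WT libraries there, against 1369 to 2592 in GPATCH4 KO and 1752 to 3286 in WT at positions 1 to 174. In siDHX15 libraries it was 74 to 391, against 130 to 1016, and in siNT libraries 140 to 168, against 181.5 to 247. In siNT replicate 1 the medians were closer, at 153 and 181.5.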
